A study of Mus musculus with 12 samples.

Results

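The RPE visual cycle and retinol handling set held 9 genes of the 28591 in the deposited table: Rbp4, Stra6, Lrat, Rpe65, Rdh5, Rdh10, Rdh11, Rlbp1 and Rgr. They were chosen by symbol, for their known part in vitamin A uptake and in the remaking of the visual chromophore, and not by a measured value. All 9 were present and passed the filter on low values. The retinal pigment epithelium (RPE) of 6 WT mice (C57BL/6J) and of 6 rd6 mice (homozygous for the Mfrp rd6 allele) was compared at 1 mo of age. Each library came from the RPE of both eyes of 1 mouse, and no treatment is named for either group. The rd6 allele is a germline mutation, so every cell of the animal carries it. The libraries held 28907262 to 33152725 reads on genes, with rd6 and WT libraries of like depth, and values below are normalized counts (reads divided by the library's size factor).

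Vision in vertebrates starts when light turns the 11-cis-retinal of an opsin into its all-trans form. The RPE takes up retinol from the blood, stores it as retinyl esters, isomerizes these esters to 11-cis-retinol, oxidizes it to 11-cis-retinal and hands this aldehyde back to the photoreceptors. RBP4 carries retinol in plasma and STRA6 is its receptor. LRAT forms the esters, RPE65 is the isomerohydrolase, RDH5, RDH10 and RDH11 are retinol dehydrogenases, CRALBP (encoded by Rlbp1) binds 11-cis-retinoids, and RGR is an opsin of the RPE and of Müller glia that isomerizes retinal in light.

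The 9 genes lie on 8 chromosomes of mm10. Rbp4 (ENSMUSG00000024990) is at chr19:38116629-38125281, Stra6 (ENSMUSG00000032327) at chr9:58063788-58153996 and Lrat (ENSMUSG00000028003) at chr3:82892579-82903973. Rpe65 (ENSMUSG00000028174) is on the same chromosome as Lrat, at chr3:159599175-159625321. Rdh5 (ENSMUSG00000025350) is at chr10:128913593-128922888, Rdh10 (ENSMUSG00000025921) at chr1:16105774-16133734 and Rdh11 (ENSMUSG00000066441) at chr12:79174337-79192293. Rlbp1 (ENSMUSG00000039194) is at chr7:79374870-79387048 and Rgr (ENSMUSG00000021804) at chr14:37034909-37048964. All are protein-coding. Rdh5 shares 720 of its 2809 exon bases (25.6%) with Bloc1s1 on the same strand. On reads in the shared bases, the sources used here state only that counting used Rsubread with standard parameters. The values of Rdh5 are uncertain to that extent. Stra6 and Lrat overlap other genes without sharing exon bases, and the other 6 overlap none in the annotation used.

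Because 7 of these genes were lower in rd6 RPE, the bases before the start sites are shown for 5 of the 9: Lrat, Rpe65 and Rgr, with larger falls, Rlbp1, with a smaller one, and Rdh5, which did not pass the test. The windows are the 250 bases upstream of the RefSeq start in GRCm38.p6, read 5′ to 3′ on the gene's strand. RefSeq windows matched all of the genes but Rdh10. The windows are chr3:82903975-82904224 (minus strand) for Lrat, chr3:159598931-159599180 (plus) for Rpe65, chr14:37049015-37049264 (minus) for Rgr, chr7:79387028-79387277 (minus) for Rlbp1 and chr10:128919298-128919547 (minus) for Rdh5. Capitals mark matches, on either strand, to the OTX2 core TAATCC, the E-boxes CACGTG and CATGTG read by MITF, or the SOX-type cores ACAAAG and ACAATG.
Lrat: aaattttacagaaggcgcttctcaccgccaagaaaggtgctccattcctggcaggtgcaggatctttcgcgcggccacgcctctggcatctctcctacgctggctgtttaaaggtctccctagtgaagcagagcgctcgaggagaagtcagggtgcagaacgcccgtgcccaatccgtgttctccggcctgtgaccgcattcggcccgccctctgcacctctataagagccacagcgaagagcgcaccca
Rpe65: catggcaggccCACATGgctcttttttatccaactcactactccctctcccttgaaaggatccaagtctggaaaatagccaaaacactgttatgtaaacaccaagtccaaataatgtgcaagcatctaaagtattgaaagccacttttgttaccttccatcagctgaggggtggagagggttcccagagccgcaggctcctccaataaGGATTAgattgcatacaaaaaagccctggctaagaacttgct
Rgr: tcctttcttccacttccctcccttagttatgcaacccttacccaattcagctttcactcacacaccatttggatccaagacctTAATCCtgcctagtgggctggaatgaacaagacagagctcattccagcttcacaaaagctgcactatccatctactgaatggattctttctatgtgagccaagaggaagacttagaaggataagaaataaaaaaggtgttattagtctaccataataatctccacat
Rlbp1: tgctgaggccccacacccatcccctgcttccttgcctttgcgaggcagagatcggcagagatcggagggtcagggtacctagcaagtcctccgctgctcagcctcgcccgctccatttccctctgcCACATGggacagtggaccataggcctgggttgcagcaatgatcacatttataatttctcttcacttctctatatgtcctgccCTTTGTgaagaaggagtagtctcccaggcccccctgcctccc
Rdh5: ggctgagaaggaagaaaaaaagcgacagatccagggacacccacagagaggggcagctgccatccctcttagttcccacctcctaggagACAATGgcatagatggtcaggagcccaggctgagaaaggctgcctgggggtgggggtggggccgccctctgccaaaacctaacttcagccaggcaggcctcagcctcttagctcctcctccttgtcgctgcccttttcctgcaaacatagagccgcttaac
The core TAATCC was found in Rpe65, 37 to 42 bases before the start and on the opposite strand, and in Rgr, 162 to 167 bases before the start. Rlbp1 and Rpe65 each held CATGTG, Rlbp1 also held ACAAAG, Rdh5 held ACAATG, and the Lrat window held none of the 5 motifs. Among windows not printed, 1 of the 2 of Rdh11 held CACGTG at 2 places and 2 of the 4 of Stra6 held ACAAAG, while both of Rbp4 held none. No matches overlapped. Of 32851 mouse windows of the same length, 6.25% held TAATCC, 6.02% CACGTG, 12.3% CATGTG, 16.5% ACAAAG and 10.7% ACAATG. Matches to such short motifs are a description of these letters and not of binding.

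The mutated gene was examined first. A count over the whole gene does not show the rd6 lesion itself, so it is no check of the genotype labels. Mfrp was present in every library and fell 1.54-fold in rd6 RPE, from 40022 ± 5488 in WT to 25881 ± 3091 (SD, n = 6 each; log2 change -0.63 ± 0.11 SE, limma adjusted p, or q, = 0.00126), with the 6 rd6 libraries all below the 6 WT libraries. It shares 1589 of its 4334 exon bases (36.7%) with another protein-coding gene of that strand, which leaves its values and this fall uncertain to that extent. Before any result on the 9 genes, WT replicate 4 has to be named: it held the lowest WT value for 8 of them, with a median log2 deviation of -0.41 from the WT medians, and its summed level of the ocular surface keratins Krt5, Krt12 and Krt14 was 139703, against 3.11 to 5131 in the other 5 WT libraries. Krt5 and Krt14 were at 0 in WT replicate 3. Among rd6 libraries, replicate 5 held the lowest value for 7 of the 9 genes (median deviation -0.25) with a keratin sum of 41600, and replicate 1 had a sum of 29404, against 245 to 6235 in the other 4. Values without these 3 keratin-rich libraries are given where the call of a gene or pair changed.

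All 9 genes had lower mean levels in rd6 RPE than in WT RPE, and 7 of them passed the test across all genes (limma on log2 values, q below 0.05): Rdh10, Lrat, Rgr, Rbp4, Rpe65, Rlbp1 and Rdh11. Of the 17768 genes tested, 11.6% were called lower and 11.4% higher at this threshold. Rdh10, Lrat and Rgr also fell by at least 0.807 on the log2 scale, the second rule used here, as did 2.12% of genes. Rbp4 and Rpe65 were just short of that size. The median log2 change of the 9 genes was -0.79, beside 0.0049 for all genes tested. The groups did not overlap for 4 of the 9 (Lrat, Rpe65, Rdh10, Rgr), and 5.67% of all genes tested had their 6 rd6 libraries all below their 6 WT libraries. In such bulk samples fewer RPE cells and less RNA per cell cannot be told apart.

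**Figure D1:**
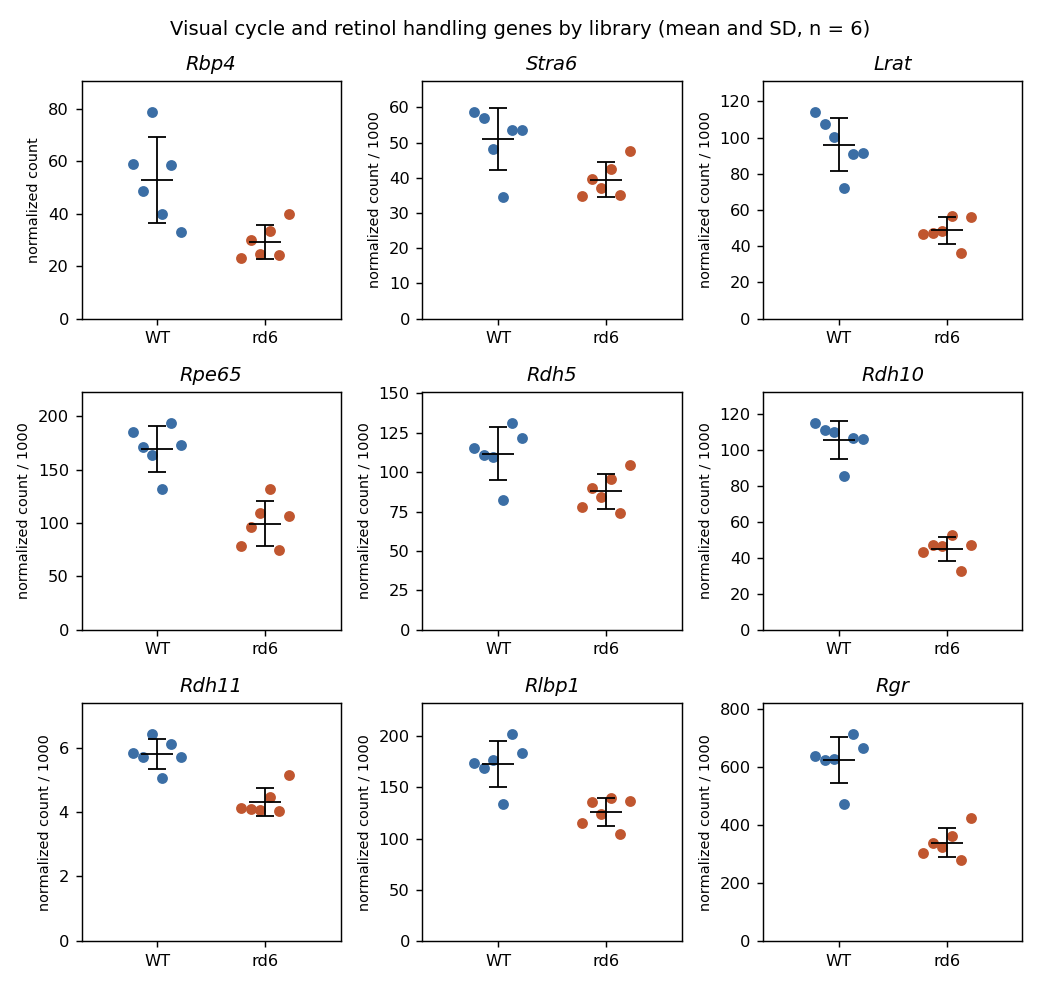
Normalized count of each of the 9 genes (vertical axes starting at 0, scaled as each label says) in the 6 WT and the 6 rd6 libraries, with 1 point a library, the mean as a line and the SD as bars. The rd6 points of Lrat, Rdh10 and Rgr lie below every WT point, those of Rpe65 reach just under the lowest WT point, and those of Stra6 and Rdh5 overlap the WT range.

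At the uptake step, the plasma carrier gene Rbp4 was expressed at very low levels. It was at 32.9, 53.6 and 78.8 (lowest, median and highest) in WT libraries and at 23.3, 27.3 and 39.8 in rd6 libraries. The ranges overlapped, with WT replicate 6 and WT replicate 4 the 2 lowest of WT and rd6 replicate 6 the highest of rd6. The log2 change was -0.81 ± 0.22 (SE, q = 0.0187), and it no longer passed without the 3 keratin-rich libraries (log2 -0.75, q = 0.0556), an alternative chosen after seeing the data. The receptor gene Stra6 was at 34580, 53611 and 58701 in WT and at 34771, 38383 and 47642 in rd6. The overlap came from WT replicate 4, which was below every rd6 library. The difference of Stra6 was -0.36 ± 0.13 on the log2 scale, with a 95% interval from -0.63 to -0.08, and did not pass the threshold (limma q = 0.0618).

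The result for Stra6 turned on single libraries. Without WT replicate 4 the log2 difference was -0.46 (limma q = 0.00251), and without rd6 replicate 6 it was -0.41 (q = 0.0413). Without the 3 keratin-rich libraries it was -0.38 (q = 0.00845). On reads recovered from the normalized values, DESeq2 called it lower (q = 0.0192) and edgeR did not (q = 0.0505).

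Lrat, whose enzyme makes the retinyl esters on which RPE65 acts, fell 1.98-fold. It was at 72369, 96026 and 114151 (lowest, median and highest) in WT and at 36336, 48093 and 56907 in rd6. Every rd6 library lay below every WT library. The log2 change was -0.98 ± 0.13 (SE, q = 0.000158). The rd6 mean was 50.6% of the WT mean.

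Rpe65, the isomerohydrolase, fell 1.73-fold. Its levels in WT were 131906, 171743 and 193458 (lowest, median and highest), and in rd6 74331, 101183 and 131800. The lowest WT library (replicate 4) and the highest rd6 library (replicate 4 of that group) were nearly equal, so that the absence of overlap rested on a small margin between 2 libraries. The log2 change was -0.79 ± 0.15 (SE, q = 0.00200), and the q ranged from 0.000780 to 0.00596 as each library was left out in turn. The SD was 21315 in WT and 21295 in rd6.

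Among the retinol dehydrogenases, Rdh10 changed most of the 9 genes. It was at 85194, 108124 and 114783 in WT and at 32442, 46737 and 52459 in rd6. The groups were far apart, with the lowest WT library again replicate 4. The fall was 2.37-fold (log2 -1.25 ± 0.11 SE, q = 7.51e-06). Rdh5, the 11-cis-retinol dehydrogenase of the RPE, was at 82080, 113305 and 131169 in WT and at 74427, 87224 and 104600 in rd6. Only WT replicate 4 was within the rd6 range. The difference of Rdh5 was -0.34 ± 0.12 on the log2 scale (95% interval -0.61 to -0.08) and missed the threshold in limma (q = 0.0597), while it passed in edgeR (q = 0.0437) and in DESeq2 (q = 0.0150).

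For Rdh5 too, leaving out 1 library was enough to change the call. The log2 difference was -0.43 without WT replicate 4 (limma q = 0.00698), -0.40 without rd6 replicate 6 (q = 0.0402) and -0.33 without the 3 keratin-rich libraries (q = 0.0166). Rdh11, a dehydrogenase found in many tissues and acting on cis and all-trans retinoids, was at 5050, 5768 and 6410 in WT and at 4025, 4119 and 5136 in rd6. The overlap was between WT replicate 4 and rd6 replicate 6. It fell 1.34-fold (log2 -0.43 ± 0.07 SE, q = 0.000909).

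Rlbp1, the CRALBP gene, is expressed by RPE and Müller glia. It was at 133619, 175406 and 201933 in WT and at 104463, 129714 and 139725 in rd6, with WT replicate 4 inside the rd6 range. The fall was 1.37-fold (log2 -0.46 ± 0.12 SE, q = 0.0130). Rgr, the opsin, was the most abundant of the set and ranked 4 among all genes by normalized count in WT. It was at 472739, 631285 and 711302 in WT and at 279730, 331606 and 423981 in rd6, without overlap. It fell 1.84-fold (log2 -0.88 ± 0.15 SE, q = 0.00113).

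**Figure D2:**
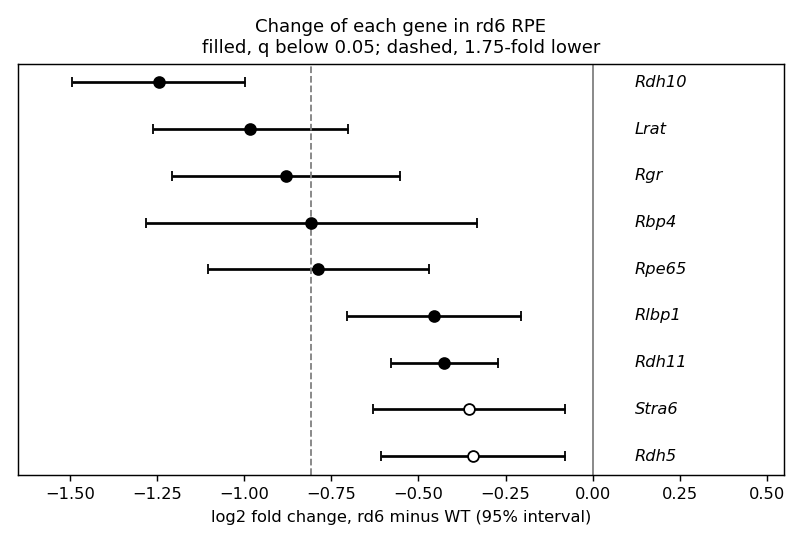
Log2 fold change (horizontal axis, rd6 minus WT) of each of the 9 genes from limma, with 95% intervals as bars. The values run from -1.25 for Rdh10 to -0.34 for Rdh5, and the 7 filled points passed q below 0.05.

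The RNA of the 9 genes made up 4.29% ± 0.40 of all reads on genes in WT libraries and 2.62% ± 0.27 in rd6 libraries (SD, n = 6 each). The WT shares ran from 3.49% to 4.62% and the rd6 shares from 2.23% to 2.95%, so they did not overlap. Rgr alone took 2.00% ± 0.20 of the reads in WT and 1.13% ± 0.13 in rd6.

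Per kb of exon, a scale on which genes of different length can be compared, the order of the levels was the same in both groups: Rgr, Rpe65, Rlbp1, Rdh5, Rdh10, Lrat, Stra6, Rdh11 and Rbp4. The length used merges all annotated exons of a gene, and which transcripts were expressed was not measured. The order of close neighbours therefore depends on that length, and that of Rdh5 also on the bases it shares. In WT, Rgr was at 130074 ± 16814 normalized counts per kb, Rpe65 at 87629 ± 11021 and Rlbp1 at 58628 ± 7627 (SD, n = 6). Stra6 stood at 8740 ± 1508 per kb and Rbp4 at 39.4 ± 12.2 per kb. Each gene exceeded the next in the order in 6 of 6 libraries of each genotype, although the ranges of neighbours overlapped between libraries for Rgr and Rpe65, for Rpe65 and Rlbp1, for Rlbp1 and Rdh5, and for Rdh10 and Lrat in both groups, and for Lrat and Stra6 in rd6. The spacing differed between the genotypes. The median ratio of Rdh5 to Rdh10 per kb was 1.49 in WT and 2.77 in rd6, and that of Lrat to Stra6 was 2.08 in WT and 1.37 in rd6.

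**Figure D3:**
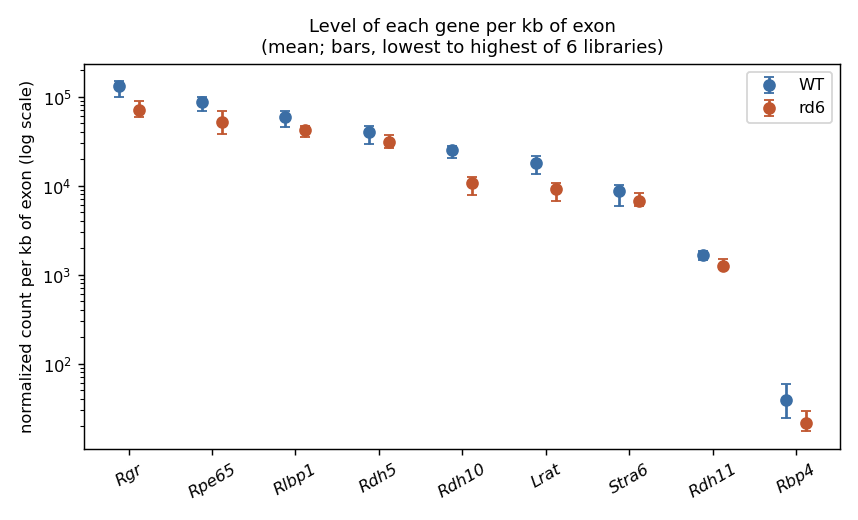
Normalized count per kb of exon (vertical log axis) for each gene, ordered by its WT level, with points at the mean and bars from the lowest to the highest of 6 libraries. The order was the same in WT and rd6, from Rgr at 130074 per kb in WT to Rbp4 at 39.4 per kb, and the gap between the genotypes was widest for Rdh10.

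Whether the genes fell by the same amount was tested for all 36 pairs, as the difference between genotypes in the log2 ratio of the 2 genes within a library (exact two-sided permutation over the 924 splits of 6 against 6, adjusted over the 36 pairs). A ratio within a library does not depend on its size factor. In 20 pairs the change differed at q below 0.05. Rdh10 fell more than 7 of the 8 other genes, the exception being Rbp4. Its ratio to Rdh5 dropped by 1.87-fold (log2 difference 0.90 for Rdh5 over Rdh10, exact permutation p = 0.00216, the smallest these 924 splits can give, q = 0.00458), and its ratio to Lrat by 1.20-fold (0.26 for Lrat over Rdh10, q = 0.00458 by the same exact permutation test).

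Lrat, Rpe65 and Rgr each fell more than Stra6, Rdh5, Rdh11 and Rlbp1, in all 12 of these pairs. The smallest of these differences was that of Rpe65 against Rlbp1, -0.33 on the log2 scale (exact permutation q = 0.0123, interval -0.51 to -0.14). The weakest by its test was Rpe65 against Rdh11, -0.36 (exact permutation q = 0.0429). That pair was lost without any 1 of 8 libraries (WT replicates 1, 2, 5 and 6 and rd6 replicates 1, 2, 5 and 6, exact permutation q from 0.0552 to 0.0779) and without the 3 keratin-rich libraries (-0.26, exact permutation q = 0.136). Among Lrat, Rpe65 and Rgr themselves no pair passed, with intervals of -0.40 to 0.01 for Lrat over Rpe65, -0.30 to 0.10 for Lrat over Rgr and -0.10 to 0.30 for Rpe65 over Rgr. Lrat against Rpe65 passed without WT replicate 5 (-0.25, exact permutation q = 0.0429). Within the other 4 genes, the ratio of Rdh5 to Rlbp1 rose by 0.11 on the log2 scale (interval 0.04 to 0.19, exact permutation q = 0.00458), and the remaining 5 pairs did not pass. The interval for Stra6 over Rdh5 was -0.15 to 0.10 and that for Rdh11 over Rlbp1 was -0.14 to 0.20. None of the 8 pairs with the low-count gene Rbp4 passed, and their intervals were wide, such as -0.45 to 0.41 for Rbp4 over Rpe65. Without WT replicate 6, the WT library with the least Rbp4, 4 of the 8 passed (against Stra6, Rdh5, Rdh11 and Rlbp1, from -0.49 to -0.61), and without WT replicate 3 the pair with Rdh10 passed (0.55), as it did with all 12 libraries at a pseudocount of 10 (0.59, exact permutation q = 0.0117).

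**Figure D4:**
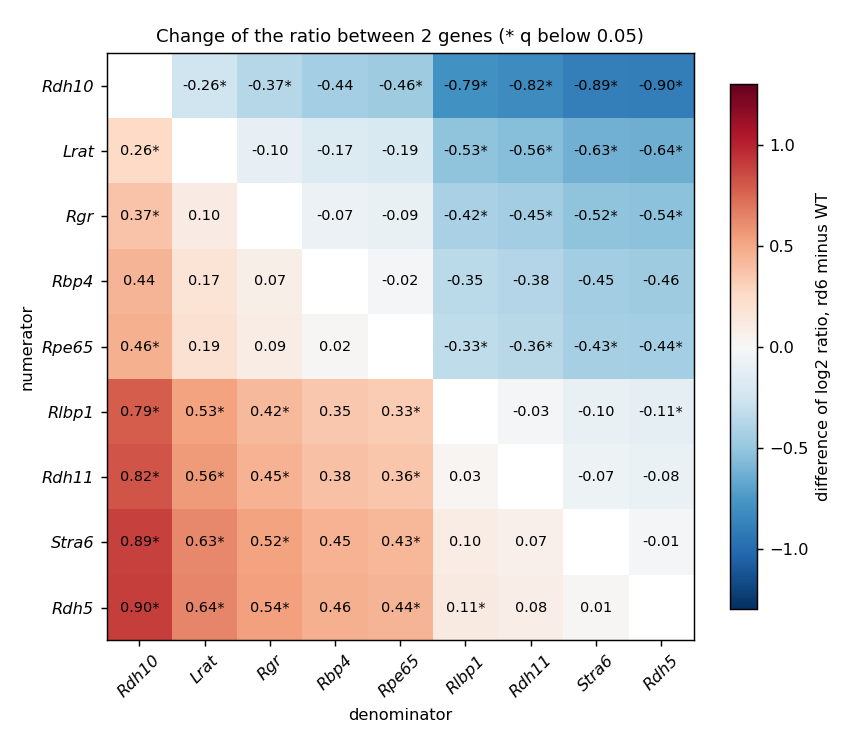
Difference between rd6 and WT in the log2 ratio of the gene in the row to the gene in the column, with colour from blue (ratio lower in rd6) to red (higher) and an asterisk at exact permutation q below 0.05 over 36 pairs. Rows and columns are ordered by the log2 change, and the Rdh10 row runs from -0.26 against Lrat to -0.90 against Rdh5.

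The tissue was checked against markers of the RPE that are not among the 9 genes. Of 12 such markers, none was at 0 in any library (Cldn19 was as low as 1.97, under the level of 3 reads), 2 fell (Slc16a1 and Kcnj13) and none rose, and the median log2 change was -0.14. Their mean log2 level was 13.18 ± 0.15 in WT and 13.11 ± 0.14 in rd6 (SD, n = 6 each; exact permutation p = 0.413), a difference of -0.07. Without Best1 and Cldn19 that difference was -0.15 (exact permutation p = 0.147). Measured relative to that mean, 7 of the 9 genes were lower in rd6 at an unadjusted exact permutation p below 0.05 over the 924 splits, as were 7.1% of all genes tested. The relative change was -1.17 for Rdh10, -0.91 for Lrat, -0.81 for Rgr, -0.74 for Rbp4, -0.72 for Rpe65, -0.39 for Rlbp1 and -0.36 for Rdh11, on the log2 scale. Stra6 and Rdh5 had relative differences of -0.29 (exact permutation p = 0.110) and -0.27 (exact permutation p = 0.0931). The result for Rlbp1 (exact permutation p = 0.0325) was lost at that threshold without WT replicate 1, 3 or 5 or rd6 replicate 1, 5 or 6 (exact permutation p from 0.0541 to 0.0649). Without WT replicate 4 all 9 genes were lower, with Stra6 at -0.41 and Rdh5 at -0.38. Without the 3 keratin-rich libraries 8 were lower, and Rbp4 was not (-0.68, exact permutation p = 0.0714). The shares of all genes under these omissions are not given. With the list lacking Best1, which was low, and Cldn19, which was highest in the 3 keratin-rich libraries, all 9 were lower relative to the list (a choice made after seeing the data), from -1.09 for Rdh10 to -0.19 for Rdh5, beside 6.29% of all genes. The mean log2 level of 7 pigment genes was itself 0.13 higher in rd6 (exact permutation p = 0.199), which adds to each fall measured against it. Relative to that list all 9 were lower, from -1.38 for Rdh10 to -0.48 for Rdh5, beside 20.8% of all genes.

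Markers of other cell types moved with genotype beside these genes. All 12 rod markers had a log2 change below 0 in rd6, 4 of them past the test. The mean count of Sag was slightly higher in rd6 (2625, against 2603 in WT; log2 change -0.16). The summed level of the 12 ran from 34173 to 74023 in WT and from 17830 to 64670 in rd6, where replicate 5 was the highest. For the microglia or macrophage list, 7 of 8 markers rose, by 1.60 (Tmem119) to 4.23 (P2ry12) on the log2 scale. The sum ran from 13995 to 19927 in WT and from 23962 to 36352 in rd6. Most of that sum was Csf1r, the marker that did not pass (mean 17256 in WT and 18741 in rd6), so it understates the rise of the other 7. Of 6 endothelial markers 4 rose, with sums of 4340 to 8315 in WT and 7138 to 16583 in rd6. Of 8 markers of Müller glia, which also express Rlbp1 and Rgr, 1 fell and 1 rose. Their sum was 113525 to 123486 in WT and 97955 to 114093 in rd6. Glul (mean 56099 in WT and 47753 in rd6) and Car14 (49300 and 41583) made up most of it, so it says little of the other markers. Stromal markers fell in 1 of 6 cases (sums 11098 to 17087 in WT, 6086 to 16027 in rd6) and melanocyte markers in 2 of 3 (7727 to 9286 in WT, 4766 to 6237 in rd6). Of 7 pigment genes 1 fell and 1 rose, and of the 3 ocular surface keratins none passed. Outside the keratins no marker of these lists was at 0 in any library. The part of these cells in the results above was not tested.

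The genes of the photoreceptor side of the cycle were lower by their means in rd6 in 7 of 7 cases, with 4 past the test and a median log2 change of -0.96. Rdh12, a photoreceptor retinol dehydrogenase, fell 2.09-fold (q = 0.0284), and Opn1mw, a cone opsin, 2.21-fold (q = 0.0438). Abca4, the flippase that clears retinal from disc membranes and is also made by the RPE, fell 1.16-fold (log2 -0.21 ± 0.07 SE, q = 0.0422). Leaving out 1 library ended the call of Rdh12 in 5 of 12 cases, that of Opn1mw in 10 and that of Abca4 in 10, with limma q up to 0.0650, 0.0962 and 0.0889. Rdh8 had a log2 difference of -0.79 (q = 0.150) and Rbp3, the retinoid carrier between photoreceptors and RPE, one of -0.61 (q = 0.237). Both passed without rd6 replicate 5, the rd6 library with the most rod RNA (q = 0.0244 and 0.0325), and Rbp3 also passed without the 3 keratin-rich libraries (log2 -0.91, q = 0.0405).

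Of 28 other genes of retinol binding, transport and oxidation or reduction in the table, 23 were tested, 7 fell and 2 rose, and their median log2 change was -0.10. Bco2, which cleaves carotenoids, fell 2.42-fold, from 475 ± 54.1 to 196 ± 21.3 (SD, n = 6; limma q = 1.33e-06), with no overlap between the groups. Retsat, retinol saturase, fell 1.57-fold (q = 0.000577). Dhrs3, a retinal reductase, fell 1.31-fold (q = 0.00493) and Rrh, the RPE opsin peropsin, 1.28-fold (q = 0.00934). Bco1, which cleaves beta-carotene to retinal, rose 1.80-fold from a low level, 49.7 ± 4.63 in WT to 93.9 ± 32.1 in rd6 (SD, n = 6; limma q = 0.00747). Dhrs7, a short-chain dehydrogenase, rose 1.31-fold (q = 0.00238). Ttr, the plasma partner of RBP4 and a major transcript of the RPE, had a log2 difference of 0.25 ± 0.17 that did not pass (q = 0.302).

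**Figure D5:**
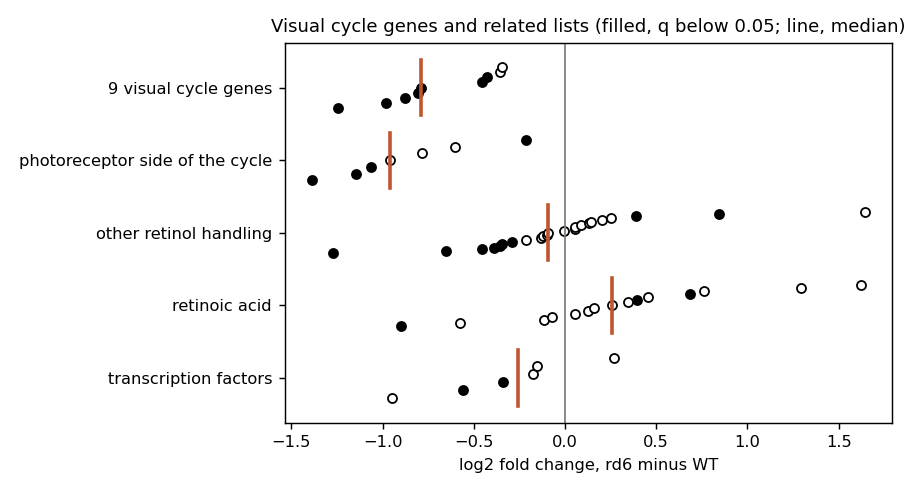
Log2 fold change (horizontal axis, rd6 minus WT) of every tested gene of the 9 and of 4 related lists, 1 point a gene, filled at q below 0.05, with a line at the median of the list. The medians were -0.79 for the 9 genes, -0.96 for the photoreceptor side, -0.10 for other retinol handling, 0.26 for retinoic acid and -0.26 for the transcription factors.

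In the retinoic acid list, 15 of 17 genes were tested, 1 fell and 2 rose, with a median log2 change of 0.26. Over all genes tested, 11.6% were called lower and 11.4% higher, so these counts are near those shares. The largest positive difference of the list was imprecise (Adh7, log2 1.62 ± 1.51 SE, limma q = 0.476). Aldh1a2, a retinaldehyde dehydrogenase, fell 1.86-fold (q = 0.0498) and Rara rose 1.32-fold (q = 0.0421), and leaving out 1 library ended these calls in 10 and 9 of 12 cases (limma q up to 0.103 and 0.0913). Rxrg, a retinoid X receptor, rose 1.61-fold (log2 0.68 ± 0.19 SE, q = 0.0188), and no single library left out ended that call. Among transcription factors known to act on RPE genes, 6 of 7 were tested and 2 fell. Lhx2 fell 1.47-fold (log2 -0.56 ± 0.07 SE, q = 0.000137), with no overlap between groups. Sox9, known to act on RPE65 and RLBP1 promoters, fell 1.27-fold (q = 0.0414), a call that leaving out 1 library ended in 9 of 12 cases (limma q up to 0.0919). Otx2 had a log2 difference of -0.18 ± 0.10 (q = 0.220) and Mitf one of -0.15 ± 0.07 (q = 0.133), and Mitf passed without WT replicate 4 (q = 0.0439).

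The genes whose levels followed Rpe65 most closely over the 12 libraries were found by the SD of the log2 ratio to Rpe65, a description over libraries of both genotypes. The smallest SDs among genes outside the set were those of Haus3 (0.098), Bmp6 (0.10), Tshr (0.11), Epdr1 (0.12) and 4930512H18Rik (0.12), against a median of 0.53 over all genes. Their rd6 levels were 1.64-fold, 1.68-fold, 1.60-fold, 1.77-fold and 1.79-fold lower, sizes near that of Rpe65 that the way they were chosen fixes. Bmp6 encodes a bone morphogenetic protein and Tshr the receptor for thyrotropin. Of the other 8 visual cycle genes, Rgr was nearest to Rpe65 (SD 0.16, rank 25 of 17767 genes), then Lrat (0.19, rank 49) and Rlbp1 (0.22, rank 154). Rdh5 (0.27), Rdh10 (0.27), Rdh11 (0.28), Stra6 (0.29) and Rbp4 (0.33) stood farther from it.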

How the data were processed

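Total RNA from the RPE of 12 mice, 6 WT and 6 rd6, was sequenced by the authors as stranded total-RNA read pairs, aligned to mm10, counted with Rsubread under standard parameters and normalized with DESeq2. The submitters' processing notes also name bcl2fastq and FastQC. Tool versions are not given in the sources used here. The deposited normalized values are counts divided by a size factor (a signal, not raw counts). Whole reads were recovered for 100% of values in every library (tolerance 0.01 read), which gave the depths. Of 28596 rows, 5 repeats were dropped. The 5 deposited columns of the authors' own comparison (fold changes and p-values) were not used.

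Genes with a mean of at least 10 were tested with limma 3.58.1 (R 4.3.3, lmFit and eBayes with a trend) on log2(value + 1), with genotype as the one term and Benjamini-Hochberg adjustment over all genes (q below 0.05, and as a second rule at least 1.75-fold). Fold changes are on that log2(value + 1) scale. edgeR 4.0.16 and DESeq2 1.42.0 on the recovered reads, other scalings, pseudocounts and filters, a replicate block and leaving out each library were alternatives. Ratios of genes were tested by exact permutation. Their 95% intervals are the shifts that this test does not reject at 0.05.

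Groups came from the genotype labels. Replicate numbers 1 to 6 occur in both groups, but the labels do not say that they pair animals, and sex and litter are not given per library. Named were all 9 genes, Mfrp, genes of 4 related lists past q below 0.05 (up to 4 per direction and list), 12 related genes chosen by name, and the 5 genes nearest to Rpe65. Some genes that this rule names are not reported here. Slc16a1, Kcnj13, Best1, Cldn19, Sag, Csf1r, Tmem119, P2ry12, Glul, Car14 and Adh7 were named after their values were seen. The genes and lists were chosen with earlier results of these data known. Exon lengths and overlaps came from GENCODE vM21 (GRCm38, the build of mm10).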

Additional observations from a re-analysis of the deposited data

Results flagged for a closer look

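In WT replicate 4, Rdh10 stood at 85194 and Rgr at 472739, each far below the other 5 WT libraries: the gap to the next library was 0.710 and 0.629 of the whole range, past the 0.625 that Dixon's test sets for 6 samples. These were 2 of the 20 groups looked at (the 9 genes and Mfrp in each genotype), and chance flags about 1 in 20 groups. Both genes passed the test with and without that library.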

How the results depend on the processing

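The log2 difference of each of the 9 genes stayed below 0 under all 23 alternatives. The count of genes lower at q below 0.05, 7 in the report, ran from 5 to 9, and 5 of the 9 (Lrat, Rpe65, Rdh10, Rdh11, Rgr) were called under every alternative. The shares of all genes given above are those of the main settings with all 12 libraries. No share is given for the alternatives, so their counts cannot be set against one. The count that also passed the fold threshold, 3 in the report, was 5 with upper-quartile rescaling and 3 to 5 as each library was left out. Rbp4 and Rpe65 lie near that fold. Without the 3 keratin-rich libraries 8 genes were lower, 19 pairs differed and 6 genes were lower relative to the RPE markers with p adjusted over the 9. As each library was left out, 19 to 23 pairs differed and 5 to 9 genes (7 in the full set) were lower relative to the RPE markers by that adjusted p. With a replicate block, limma called 5 genes, losing Rbp4 (q = 0.0910) and Rlbp1 (q = 0.0760). A sign-flip test with the replicate block called 0 pairs and 0 genes relative to the RPE markers at q below 0.05, but 6 pairs of animals cannot give an exact p under 0.03125, and its smallest q values were 0.0592 and 0.0938. Same-numbered libraries had correlations of their deviations from -0.74 to 0.31 (mean -0.25), and 0 of 12 libraries correlated best with its own number, so the numbers were not treated as pairs. At 23 to 79 normalized counts, depth limits the precision of Rbp4 most of the 9 genes.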

Other observations

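Of the 28 other retinol-handling genes in the table, 5 were under the mean of 10 and were not tested. One of them was Stra6l, a paralog of Stra6 that encodes a second receptor for RBP4. It was at 3.01 ± 2.05 normalized counts in WT, 0 in at least 1 library, and at 12.7 ± 6.19 in rd6 (SD, n = 6 each). Its rd6 libraries, from 6.78 to 23.5, lay above the highest WT library, at 5.83. Rbp7, a cellular retinol-binding protein, was at 7.95 ± 4.28 in WT and at 10.4 ± 3.96 in rd6, and its ranges overlapped.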
